A study of Mus musculus with 25 samples.

Results

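Gastrocnemius muscle of 25 male SAMP8 mice, an inbred line with accelerated senescence, fell into 2 separate levels of the mRNA for Ppp1r1a, and the other genes were compared between the mice at each level. The groups were chosen by the measured value of Ppp1r1a itself. The 14 mice above 3 log2 CPM (read counts scaled to a common library size, on a log2 scale) are called high and the 11 mice at or below it are called low. Treatment began at 8 months of age and lasted 3 months, with an oral dose of thymol (20 mg per kg a day, n = 14) or its vehicle (control, n = 11). Doses were given on most but not all days of each week. The labels name no allele, and younger mice or mice of another strain were not analyzed here. QuantSeq 3′ mRNA sequencing was used, which reads the 3′ ends of polyadenylated transcripts, with 1 library per mouse.

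Ppp1r1a encodes inhibitor-1, a small protein that blocks protein phosphatase 1 (PP1) once protein kinase A (PKA) has phosphorylated it. PKA is activated when hormones such as adrenaline raise cyclic AMP (cAMP), and PP1 removes phosphate from many of the proteins that PKA phosphorylates. In skeletal muscle this pair of enzymes acts on glycogen breakdown, calcium handling and contraction.

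Ppp1r1a lies on the minus strand at chr15:103530279-103538003 (GRCm38) and has 7 exons in its coding transcript. The first 120 bases of its coding sequence are shown because they hold both features that make the protein a PP1 inhibitor under PKA control. They were read from the reference transcript of C57BL/6J mice, not from these SAMP8 mice. Capitals mark first the codons of the PP1-binding motif, at bases 22 to 36, and then the codons of the PKA site, at bases 94 to 105, both counted from the A of the start codon.
Ppp1r1a: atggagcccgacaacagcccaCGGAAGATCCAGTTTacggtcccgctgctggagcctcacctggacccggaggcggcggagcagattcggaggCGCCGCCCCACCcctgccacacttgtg
The nearest annotated protein-coding gene, Pde1b, which encodes a phosphodiesterase that breaks down cyclic nucleotides, lies on the plus strand and ends 227 bp before Ppp1r1a. Neither Pde1b nor the next protein-coding genes Glycam1, Nckap1l and Gtsf2 had a row in the table.

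In the 11 low mice, Ppp1r1a lay between -0.40 and 1.32 log2 CPM with a median of 0.57, on 3 to 16 reads per mouse. In the 14 high mice, it lay between 4.62 and 5.41 log2 CPM with a median of 5.003, on 174 to 326 reads per mouse. The groups did not overlap because the rule separated them, and no test was made of Ppp1r1a between them. The mean CPM was 1.22 in low and 32.3 in high mice, a ratio of 26.5. Thymol mouse 28 at 4.62 was the lowest high mouse and thymol mouse 22 at 1.32 was the highest low mouse, which left a gap of 3.30 log2 units with no mouse in it. A threshold at 2, at 4 or in the middle of that gap (2.97) gave the same split. Within each level the mice were closer together, with a standard deviation of 0.57 in low and 0.22 in high mice. No low mouse was at 0 reads. In low mice the mean of Ppp1r1a ranked 8829 of 8829 genes, the last in the table, and in high mice it ranked 2749. The authors kept a gene when enough mice had enough reads, and Ppp1r1a met this through the high mice alone.

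**Figure D1:**
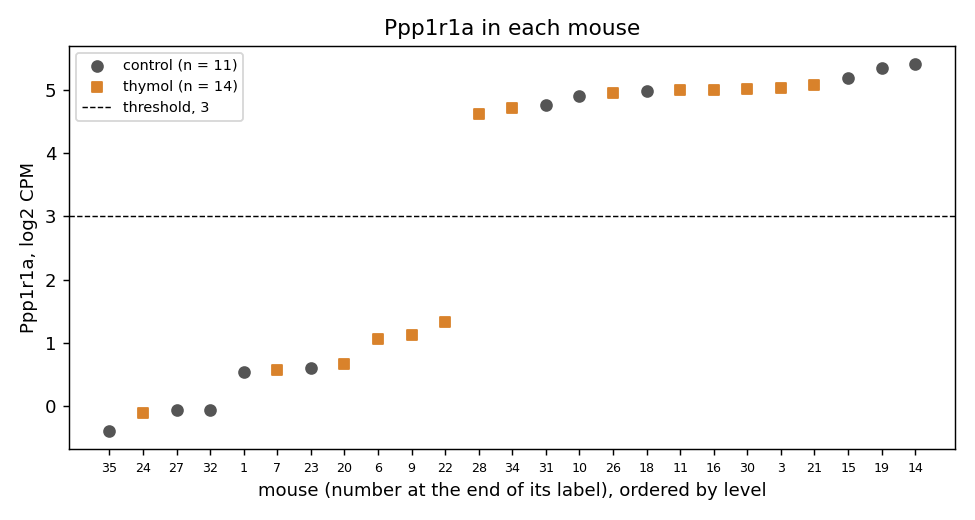
Ppp1r1a in log2 CPM (y axis) in each of 25 mice ordered by level (x axis, number at the end of the mouse's label), with control mice as grey circles (n = 11), thymol mice as orange squares (n = 14) and the threshold of 3 as a dashed line. The 11 low mice end at 1.32 and the 14 high mice begin at 4.62, with both treatments at both levels.

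Treatment did not separate the levels. Of 11 control mice 6 were high (54.5%), and of 14 thymol mice 8 were high (57.1%; Fisher's exact test, two-sided, p = 1). Mean Ppp1r1a was 2.84 ± 2.63 log2 CPM in control mice (SD, n = 11) and 3.15 ± 2.17 in thymol mice (SD, n = 14), a difference of 0.31 (permutation test, two-sided, p = 0.674). Among low mice alone, the mean was 0.12 ± 0.43 in control (SD, n = 5) and 0.77 ± 0.52 in thymol mice (SD, n = 6). Among high mice alone, it was 5.11 ± 0.26 in control (SD, n = 6) and 4.93 ± 0.17 in thymol mice (SD, n = 8). Labels of the mice begin with another number, whose meaning is not given, and 7 such numbers were shared by 2 or more mice, 16 mice in all. For 4 of the 7 numbers every mouse was at the same level, and for 3 the mice were at different levels.

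The levels did not differ detectably in depth or composition. Reads in the table ranged from 4463818 to 8845982 in low and from 5607926 to 9463418 in high mice (permutation test, two-sided, p = 0.622). Mitochondrially encoded genes took 22.003 to 31.8% of reads in low and 22.1 to 33.9% in high mice (permutation test, two-sided, p = 0.725). Control mouse 18 (29.2) was the extreme of principal component 1, thymol mouse 20 (-24.2) of component 2 and control mouse 19 (-30.5) of component 3. Both of these control mice were high and the thymol mouse was low. Values without these mice are given beside the leading genes. All 15 skeletal muscle markers were in the table, and their summed level was 218947 to 278622 CPM in low and 213052 to 282638 CPM in high mice, with overlap between the levels.

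No gene other than Ppp1r1a differed between high and low mice at an adjusted p under 0.05, in a limma fit with treatment as a covariate over 8828 genes (0% called). The smallest adjusted p was 0.260, and voom on the recovered reads also called 0 genes. At an unadjusted p under 0.05 there were 387 genes (4.38% of those tested), of which 199 (2.25%) were higher and 188 (2.13%) lower in high mice. The absolute difference had a median of 0.07 log2 units over all genes and passed 1 in 4 genes. No gene among the 8828 had levels that left the high and low mice without overlap. The values below therefore describe the genes with the smallest p, the neighbors of Ppp1r1a and the genes of PP1 and PKA, and none of them passed the adjusted test.

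The 2 genes with the smallest p among those higher in high mice lay close together on the chromosome of Ppp1r1a. Amhr2, which encodes the type II receptor for anti-Müllerian hormone, lies at chr15:102445367-102454633, 1.08 Mb from Ppp1r1a. In low mice Amhr2 lay between 0.60 and 2.62 log2 CPM with a median of 1.66, and in high mice between 1.71 and 3.20 with a median of 2.68. Of the 14 high mice 9 were above every low mouse, and 7 of the 11 low mice were below every high mouse. The other 5 high mice lay within the range of the low mice, the lowest of them thymol mouse 3 at 1.71. Amhr2 was 0.91 ± 0.18 log2 units higher in high mice (SE, 1.88-fold, limma p = 2.95e-05, adjusted p = 0.260). This gene was lowly expressed, with 9 to 73 reads per mouse. Every gene of the table had 32 or more reads in at least 6 mice. Among low mice Amhr2 had 43 reads in thymol mice 9 and 20 and at most 28 in any other. It therefore met the authors' read filter only through the high mice, which favors a gene that is higher in them.

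Pcbp2, which encodes a poly(C)-binding protein that regulates mRNA stability and translation, lies at chr15:102470539-102500061, 1.03 Mb from Ppp1r1a. In low mice Pcbp2 lay between 6.11 and 6.56 log2 CPM with a median of 6.35, and in high mice between 6.21 and 7.06 with a median of 6.87. Here 11 of 14 high mice were above every low mouse, while control mouse 15 at 6.21, thymol mouse 3 at 6.31 and control mouse 14 at 6.46 lay within the range of the low mice. The difference was 0.38 ± 0.09 log2 units (SE, 1.31-fold, limma p = 1.03e-04, adjusted p = 0.289). Pcbp2 had 415 to 1019 reads per mouse and overlaps Map3k12 on the opposite strand. Whether the authors counted by strand is not given in the sources used here. Thymol mouse 3 was thus the lowest high mouse for Amhr2 and the second lowest for Pcbp2.

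The promoters of this pair are printed because the genes lie close together and both were higher in most high mice, from 250 bases before to 50 bases after the start site, on the plus strand of GRCm38.p6 as RefSeq gives it for C57BL/6J. Capitals mark the GC box (GGGCGG on either strand), which 35.9% of 27025 promoters of this length hold. Amhr2 is at chr15:102445117-102445416 and Pcbp2, whose first of 2 listed start sites was taken, at chr15:102470289-102470588.
Amhr2: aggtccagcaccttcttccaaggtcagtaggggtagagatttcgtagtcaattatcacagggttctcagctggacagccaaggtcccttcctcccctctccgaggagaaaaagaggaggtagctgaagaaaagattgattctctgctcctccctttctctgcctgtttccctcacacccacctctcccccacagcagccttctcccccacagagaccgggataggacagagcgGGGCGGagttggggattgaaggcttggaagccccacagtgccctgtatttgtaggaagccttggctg
Pcbp2: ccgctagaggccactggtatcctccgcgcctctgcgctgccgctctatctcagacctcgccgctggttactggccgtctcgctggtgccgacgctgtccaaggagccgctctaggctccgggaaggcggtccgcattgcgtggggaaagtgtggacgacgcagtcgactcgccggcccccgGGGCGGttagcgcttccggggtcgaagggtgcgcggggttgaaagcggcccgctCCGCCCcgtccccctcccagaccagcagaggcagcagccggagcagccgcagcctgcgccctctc
Neither window holds TGACG on either strand, the core letters of the cAMP response element, which 21.02% of the promoters hold.

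Kcnk2 and Zfp251 completed the group of 4 genes with adjusted p under 0.3. Kcnk2 encodes TREK-1, a potassium channel that PKA is known to close, and lies on chromosome 1. In low mice Kcnk2 lay between 1.47 and 2.87 log2 CPM with a median of 1.97, and in high mice between 2.40 and 3.78 with a median of 2.88. The levels overlapped, since 7 of 14 high mice were above every low mouse and 8 of 11 low mice were below every high mouse. The difference was 0.73 ± 0.16 log2 units (SE, limma p = 1.14e-04, adjusted p = 0.289). Kcnk2 had 16 to 107 reads per mouse, and its reads in low mice alone would not have met the authors' filter. Zfp251, a zinc finger gene, is also on chromosome 15 but 26.7 Mb from Ppp1r1a, at chr15:76851609-76871435. In low mice Zfp251 lay between 2.83 and 3.61 log2 CPM with a median of 3.18, and in high mice between 2.16 and 3.16 with a median of 2.65. Of the 14 high mice 11 were below every low mouse, and the difference was -0.54 ± 0.12 log2 units (SE, limma p = 1.31e-04, adjusted p = 0.289).

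**Figure D2:**
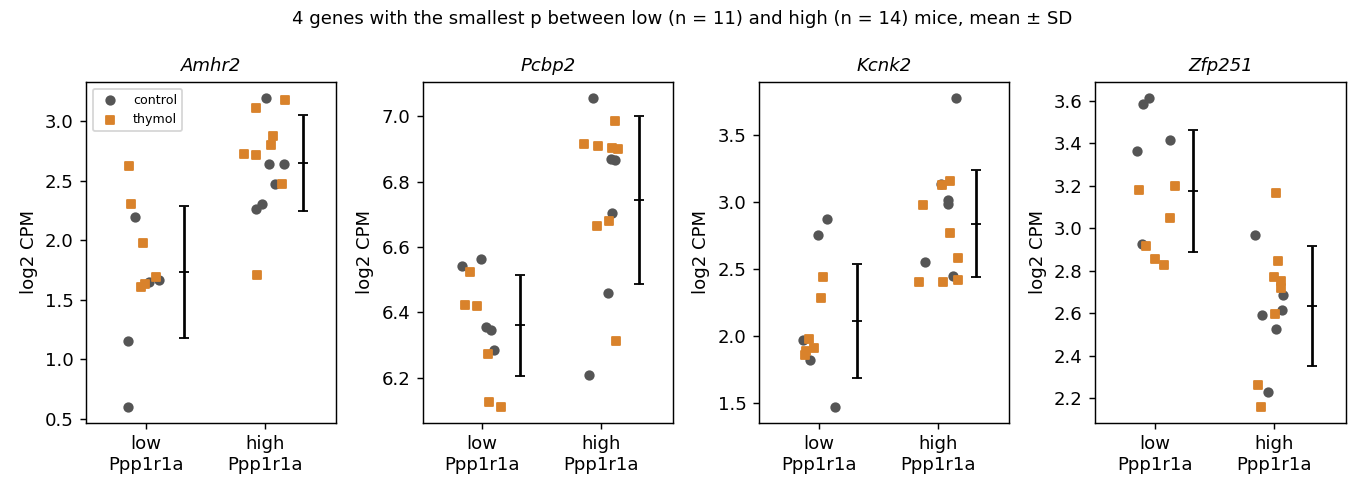
Log2 CPM (y axis) of Amhr2, Pcbp2, Kcnk2 and Zfp251 in each mouse, by Ppp1r1a level (x axis, low n = 11, high n = 14), with control mice as grey circles, thymol mice as orange squares and black bars at the mean ± SD. High mice are mostly above low mice for the first 3 genes and mostly below for Zfp251, and the levels overlap in every panel.

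The direction was the same within each treatment for these genes. They were chosen by their p over the same 25 mice, which favors this outcome, so the values are a description and not a replication. In control mice alone (6 high, 5 low) the difference was 1.14 ± 0.29 log2 units for Amhr2, 0.28 ± 0.13 for Pcbp2, 0.81 ± 0.29 for Kcnk2 and -0.78 ± 0.19 for Zfp251 (SE). In thymol mice alone (8 high, 6 low) it was 0.73 ± 0.23 for Amhr2, 0.47 ± 0.10 for Pcbp2, 0.67 ± 0.18 for Kcnk2 and -0.35 ± 0.16 for Zfp251 (SE). Without control mice 18 and 19 and thymol mouse 20, the differences were 0.93, 0.33, 0.74 and -0.55 in the same order. A test of whether the difference between levels itself differed between treatments called no gene (420 genes, 4.76%, at an unadjusted p under 0.05, smallest adjusted p 0.904).

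Other genes with small p had modest differences. Higher in high mice were Pxmp4 (0.30 ± 0.08 log2 units, SE), which encodes a peroxisomal membrane protein, Rbm33 (0.30 ± 0.08), Cst6 (0.66 ± 0.19), a cysteine protease inhibitor, Cenpv (0.34 ± 0.10), Misp3 (0.68 ± 0.20), Elac2 (0.37 ± 0.11), which processes mitochondrial transfer RNA, and Trim2 (0.51 ± 0.16), a ubiquitin ligase. Their unadjusted p ran from 9.77e-04 to 0.00306. Lower in high mice were Ipo11 (-0.44 ± 0.11), a nuclear import receptor, Bltp3a (-0.40 ± 0.10), Mrm1 (-0.65 ± 0.16), a mitochondrial ribosomal RNA methyltransferase, Pitpnc1 (-0.28 ± 0.08), Ntmt1 (-0.53 ± 0.15), Card19 (-0.29 ± 0.08), Stim1 (-0.16 ± 0.05), the calcium sensor of the sarcoplasmic reticulum, and Tbc1d25 (-0.50 ± 0.15). The largest difference among these 20 genes was that of Cish, a feedback inhibitor of cytokine signaling through STAT5. In low mice Cish lay between 4.17 and 7.56 log2 CPM with a median of 5.68, and in high mice between 3.07 and 6.30 with a median of 4.16. The difference was -1.21 ± 0.35 log2 units (SE, limma p = 0.00175, adjusted p = 0.964), and 7 of 14 high mice were below every low mouse.

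Likeness to Ppp1r1a across the 25 mice, after the mean of each treatment was removed, was measured with Pearson's r and is given as a description. It was strongest for Zfp251 (r = -0.74), Amhr2 (0.71), Ipo11 (-0.70), Mrm1 (-0.65) and Bltp3a (-0.65). Within a level, r was smaller in size for each of these genes than over all 25 mice. Among the 14 high mice alone, r was -0.44 for Zfp251, -0.03 for Amhr2, -0.06 for Ipo11, -0.02 for Mrm1 and 0.20 for Bltp3a. Among the 11 low mice it was -0.24, -0.07, 0.05, -0.37 and -0.06 in the same order.

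Near Ppp1r1a, genes with small p lay 0.56 to 1.39 Mb away. Of 30 tested genes within 2 Mb, 7 had an unadjusted p under 0.05 (23.3%, against 4.38% of all genes), of which 4 were higher and 3 lower in high mice, and none passed the adjusted test. This count fell to 4 without thymol mouse 9 or without control mouse 27 and when the lowest-expressed genes were left out, and to 3 in control mice only. Within 1 Mb it was 2 of 15 genes (13.3%), within 5 Mb 8 of 61 genes (13.1%) and within 10 Mb 8 of 78 genes (10.3%). Beyond 2 Mb 1 gene was thus added, and the 2 Mb window had the highest share of these windows. Over the whole of chromosome 15 it was 18 of 346 genes (5.20%), and over the other chromosomes 366 of 8404 genes (4.36%). The median difference within 2 Mb was 0.01 log2 units, beside 0.00 over all genes. The counts are given without a test, since genes this close are not independent of each other.

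The 7 genes of the 2 Mb window were Spryd3, Mfsd5, Myg1, Amhr2, Pcbp2, Calcoco1 and Hoxc10, in their order toward Ppp1r1a. Spryd3 lay between 1.71 and 3.45 log2 CPM in low and between 2.59 and 3.64 in high mice, a difference of 0.35 ± 0.16 (SE). Mfsd5, which encodes a membrane transporter, lay between 3.87 and 4.64 in low and between 4.07 and 4.67 in high mice (0.22 ± 0.09). Myg1, an exonuclease gene, lay between 2.65 and 3.60 in low and between 2.24 and 3.13 in high mice (-0.29 ± 0.12). These 3 genes overlapped widely between the levels. Calcoco1, which encodes a receptor for autophagy of the endoplasmic reticulum, lay between 6.13 and 6.56 in low and between 5.75 and 6.56 in high mice (-0.18 ± 0.08). Hoxc10, a homeobox gene that marks hindlimb position, lay between 6.76 and 7.40 in low and between 6.64 and 7.35 in high mice (-0.17 ± 0.08).

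Genes closest to Ppp1r1a differed little. The 13 other genes within 1 Mb had differences from -0.12 for Atp5mc2 to 0.26 for Hoxc11. The homeobox genes of the same cluster as Hoxc10 were at 0.26 ± 0.15 (Hoxc11), 0.01 ± 0.09 (Hoxc9), 0.19 ± 0.17 (Hoxc8), -0.02 ± 0.12 (Hoxc6) and 0.00 ± 0.12 (Hoxc4; log2 units, SE). The nearest tested gene, Zfp385a at 0.19 Mb, differed by 0.09 ± 0.20 and the next, Copz1 at 0.23 Mb, by 0.06 ± 0.07. Hnrnpa1 (-0.07 ± 0.13), Cbx5 (0.05 ± 0.08), Smug1 (-0.02 ± 0.13), Gm4544 (-0.06 ± 0.14), Atp5mc2 (-0.12 ± 0.15) and Atf7 (0.01 ± 0.08) made up the rest. Between Amhr2 and Pcbp2 lies Prr13, which differed by -0.02 ± 0.08.

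**Figure D3:**
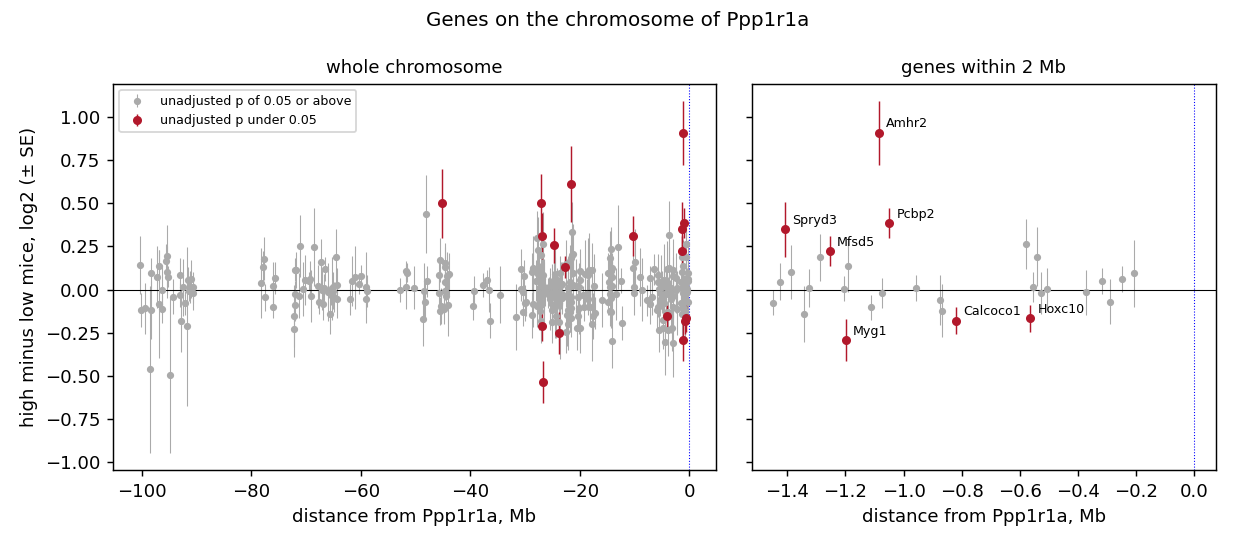
Difference between high and low mice (y axis, log2 units, bars ± SE) for the genes of chromosome 15 by distance from Ppp1r1a (x axis, Mb, dotted line at Ppp1r1a), over the whole chromosome (left, 346 genes) and within 2 Mb (right, 30 genes), with genes at an unadjusted p under 0.05 in red. Amhr2 at 0.91 stands highest, and the genes nearest to Ppp1r1a lie close to 0.

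PP1, the enzyme that inhibitor-1 acts on, showed no detectable mRNA difference between high and low mice. Ppp1ca, a catalytic subunit, lay between 6.06 and 6.72 log2 CPM in low and between 6.23 and 6.65 in high mice, a difference of -0.03 (95% interval -0.15 to 0.10). Ppp1cb, another catalytic subunit, lay between 6.33 and 6.72 in low and between 5.93 and 6.71 in high mice, a difference of -0.04 (95% interval -0.19 to 0.12). The levels overlapped for both genes. Of 42 genes on the PP1 list 27 were tested, and none had an unadjusted p under 0.05 (against 4.38% of all genes). Their median difference was -0.02 log2 units, and 13 were higher and 14 lower in high mice.

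Among PP1 inhibitors, 7 of 10 were tested and their differences ran from -0.24 to 0.08. Ppp1r11 (inhibitor-3) differed by 0.08 ± 0.06, Ppp1r8 (NIPP1, a nuclear inhibitor) by -0.16 ± 0.11 and Ppp1r14a (CPI-17, an inhibitor of myosin phosphatase) by -0.24 ± 0.17 log2 units (SE). Inhibitor-2 (Ppp1r2) differed by 0.02 ± 0.08. The tested subunits that bring PP1 to glycogen were Ppp1r3a (-0.05 ± 0.08), Ppp1r3b (0.01 ± 0.23) and Ppp1r3c (0.18 ± 0.17). The myosin-targeting subunits Ppp1r12a (0.07 ± 0.09), Ppp1r12b (-0.04 ± 0.07) and Ppp1r12c (0.05 ± 0.12) were within 0.07 of 0. Of the remaining regulatory subunits, Ppp1r18 had the smallest p, at 0.30 ± 0.16 (unadjusted p = 0.0683).

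The kinase side was similar. The PKA catalytic subunit Prkaca lay between 6.70 and 7.06 log2 CPM in low mice with a median of 6.86, and between 6.49 and 6.93 in high mice with a median of 6.72. The difference was -0.12 ± 0.06 log2 units (SE, unadjusted p = 0.0384, adjusted p = 0.997), and the levels overlapped. Prkaca was the single gene of 48 tested on the cAMP and PKA list, of 79 listed, with an unadjusted p under 0.05, a smaller share than the 4.38% of all genes. The other catalytic subunit, Prkacb, differed by -0.05 ± 0.08, and the regulatory subunits Prkar1a by -0.03 ± 0.07, Prkar2a by -0.05 ± 0.06 and Prkar2b by -0.43 ± 0.48. Prkar2b is expressed strongly in fat cells and varied widely, with 4 to 314 reads per mouse.

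Upstream of PKA, the urocortin receptor gene Crhr2 differed by -0.32 ± 0.16 (unadjusted p = 0.0601). The stimulatory G protein gene Gnas differed by -0.03 ± 0.04 and 4 adenylyl cyclases by 0.00 to 0.08. Of 16 phosphodiesterases 6 were tested, at -0.22 to 0.17, including Pde4d (0.13 ± 0.11). The PKA inhibitor genes Pkia and Pkig differed by -0.04 ± 0.06 and 0.13 ± 0.09, 10 anchoring proteins by -0.19 to 0.10, and the coactivator Crebbp by 0.09 ± 0.06. The median of the 48 genes was 0.01 log2 units.

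Downstream, none of 19 tested genes that cAMP induces (22 listed) had an unadjusted p under 0.05, against 4.38% of all genes. Fos, an immediate-early gene, lay between 0.57 and 3.68 log2 CPM in low and between -1.33 and 3.43 in high mice (-0.45 ± 0.41). Rgs2, a brake on G protein signaling, differed by -0.22 ± 0.12, and Pdk4, which limits glucose oxidation, by 0.38 ± 0.25. Another list held 28 genes for proteins linked to control by PKA or PP1, not all of them substrates of both enzymes. Of the 26 tested, none had an unadjusted p under 0.05 (against the same 4.38%) and the median was -0.04. The closest were Pfkfb1 (0.24 ± 0.12), Trdn (0.14 ± 0.08), Hdac5 (-0.17 ± 0.08) and Cacna1s (-0.08 ± 0.05), the voltage sensor of excitation-contraction coupling.

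Glycogen genes had no member with an unadjusted p under 0.05 among 22 tested of 25 (against 4.38% of all genes), with 7 higher and 15 lower and a median of -0.04. Phkg1, the catalytic subunit of the phosphorylase kinase of muscle, lay between 7.67 and 8.16 log2 CPM in low and between 6.66 and 8.29 in high mice (-0.23 ± 0.12). Gaa, the lysosomal enzyme that breaks down glycogen, differed by -0.18 ± 0.09, and Pygb, a glycogen phosphorylase, by 0.30 ± 0.22.

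Clock and glucocorticoid-responsive genes follow time of day and stress, and the sources used here do not give the hour of dissection for each mouse. Per2, a repressor of the clock, lay between 3.52 and 4.47 log2 CPM in low mice with a median of 3.99, and between 3.06 and 4.14 in high mice with a median of 3.63. The difference was -0.38 ± 0.13 log2 units (SE, unadjusted p = 0.00482, adjusted p = 0.997) and was the single clock gene of 19 tested with an unadjusted p under 0.05, a share close to the 4.38% of all genes. Per3 differed by -0.23 ± 0.17 and Cry1 by 0.21 ± 0.15. Of 19 tested glucocorticoid-responsive genes, 3 had an unadjusted p under 0.05, all higher in high mice (against 2.25% of all genes in that direction), and the median was 0.10 beside 0.00 over all genes. Cdkn1a, a cell cycle inhibitor, lay between 3.85 and 4.99 in low and between 4.11 and 6.73 in high mice (0.63 ± 0.21). Fkbp5, a chaperone of the glucocorticoid receptor, lay between 3.78 and 4.87 in low and between 3.95 and 6.07 in high mice (0.49 ± 0.18), and Errfi1 differed by 0.41 ± 0.16. The receptor gene Nr3c1 differed by -0.09 ± 0.07 and the atrophy gene Fbxo32 by -0.09 ± 0.10.

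**Figure D4:**
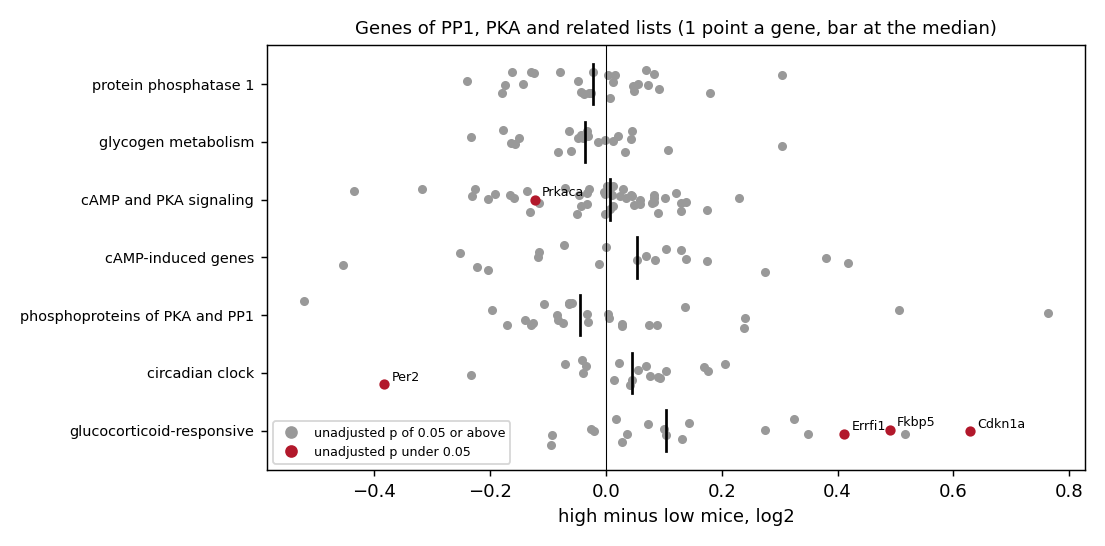
Difference between high and low mice (x axis, log2 units) for each tested gene of 7 lists (y axis), 1 point per gene, with genes at an unadjusted p under 0.05 in red and a black bar at the list's median. The medians lie between -0.04 and 0.10, and Prkaca, Per2, Cdkn1a, Fkbp5 and Errfi1 are the red points.

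Markers of fiber type and of other cells overlapped between the levels, and fewer cells of a type and less RNA per cell cannot be told apart in whole muscle. Of 11 slow fiber markers 10 were higher in high mice (against 4427 of 8828 genes), with a median of 0.73 log2 units. None had an unadjusted p under 0.05 (against 4.38% of all genes). Markers of the same fiber or cell type are not independent of each other, and such counts were not tested. The summed level of the slow fiber markers was 238 to 10404 CPM in low and 712 to 8820 CPM in high mice. Myh7, the slow myosin heavy chain, was at 7.52 ± 2.19 in low and 8.36 ± 1.21 in high mice (SD, n = 11 and 14). Of 10 adipocyte markers 9 were lower in high mice, with a median of -0.51 and none at an unadjusted p under 0.05. Their summed level was 2609 to 6001 CPM in low and 2236 to 6768 CPM in high mice. Car3, Lpl and Fabp4 had the highest means of the 10 at both levels, and Car3 (-0.07 ± 0.16, SE) weighs most in this sum. Its overlap therefore says little about markers at lower levels, such as Adipoq (-0.63 ± 0.53), Cidec (-0.78 ± 0.54) and Plin1 (-0.52 ± 0.56). The part of slow fiber or adipocyte markers in the differences above was not tested. The medians of the leukocyte (13 genes, -0.06), endothelial (12 genes, -0.02), fibroblast (10 genes, 0.06), smooth muscle (8 genes, -0.04), Schwann cell (6 genes, -0.01), erythrocyte (5 genes, 0.07), denervation (10 genes, 0.05) and immediate-early (8 genes, -0.04) lists lay near 0. Of 8 satellite cell genes 4 were tested (median 0.16). Of these only Chodl (0.35 ± 0.17, limma unadjusted p = 0.0441) was under 0.05, against 4.38% of all genes. Sdc4 was at 0.24 ± 0.15, Cdh15 at 0.08 ± 0.16 and Myod1 at -0.06 ± 0.20. The 3 fast fiber genes (Myh2, Myh1 and Myl1) had a median of 0.07.

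Kbtbd12, a muscle gene whose level also varies between these mice, was at 5.70 ± 0.76 log2 CPM in low and 5.71 ± 0.64 in high mice (SD, n = 11 and 14), a difference of 0.01 ± 0.24 (SE).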

How the data were processed

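QuantSeq 3′ mRNA libraries of 25 mice were assigned to control or thymol from their titles. The authors used STAR 2.5.3 (GRCm38) for mapping and HTSeq 0.6.1 for counting, removed genes with few reads, applied TMM normalization and deposited log2 CPM for 8829 genes. Whole reads were recovered for 100% of values (tolerance 0.05 reads) and used for depth, marker sums and a voom alternative. PCR duplicates cannot be removed, so the reads give counting error only.

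Mice were split at 3 log2 CPM of Ppp1r1a. limma 3.58.1 in R 4.3.3 was fitted to the deposited log2 values with treatment and level, and a mean-variance trend, and its two-sided p were adjusted over 8828 genes by Benjamini-Hochberg (threshold 0.05). Fisher's exact test and permutations (100000) used scipy 1.17.1. Positions are from GENCODE M21 (8613 symbols) or RefSeq (138), and 78 symbols were not placed. Named genes were the 10 with the smallest p in each direction, all within 1 Mb, the PP1 catalytic and PKA subunits, the 2 with the smallest p in each direction of each pathway list and the 5 most like Ppp1r1a. Some genes that the rule selects are not reported here. Others named (the rest of the 2 Mb window, further list members, Kbtbd12) were added after their values were seen. The members and lists were chosen with earlier results of these data known. The procedure was tested on simulated data. Alternatives are given in the closing section.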

Additional observations from a re-analysis of the deposited data

How the results depend on the processing

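The count of genes called between high and low mice (limma, adjusted p under 0.05) was 0 in the reported fit, with 387 at an unadjusted p under 0.05, and 0 under all 17 alternatives that changed the model, scaling, filter, threshold or set of mice together, where 269 (75% of genes with the highest mean) to 424 (thymol mice only) genes had an unadjusted p under 0.05. The other thresholds among these 17 gave the same split of mice, and so repeat the reported fit. Leaving out 1 mouse at a time gave 0 to 1 called genes and 348 to 465 genes at an unadjusted p under 0.05. The called gene was Amhr2 without thymol replicate 3 (0.99 log2 units, adjusted p = 0.0212) and Pcbp2 without control replicate 15 (0.43 log2 units, adjusted p = 0.0494), and the adjusted p over mice left out ran up to 0.588 for Amhr2 and 0.620 for Pcbp2. The first number of the labels as a replicate block (consensus correlation -0.04) gave 0 calls and 392 genes at an unadjusted p under 0.05. None of the 20 genes with the smallest p changed direction under the alternatives tried, which reuse the mice by which these genes were chosen.

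The 7 genes of the 2 Mb window at an unadjusted p under 0.05 became 4 among the 75% of genes with the highest mean, where Amhr2 was no longer tested, and 3 in control mice only. With 1 mouse left out they numbered 4 to 8, with 4 without thymol replicate 9 or control replicate 27. The cause was not tested. The difference of Ppp1r1a between treatments ran from -0.017 (without control replicate 35, which reversed it) to 0.56. Depth limits Ppp1r1a in low mice (3 to 16 reads) and Amhr2 (9 to 73 reads). It also limits other genes with small p, among them Kcnk2 (16 to 107 reads), Misp3 (9 to 56) and Cst6 (11 to 96). Mrm1 (14 to 74 reads), Ntmt1 (15 to 60) and Tbc1d25 (15 to 70) were as low.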

Other observations

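Other genes of the table were also at separate levels between mice, chosen here after their values were seen, as a gap of at least 1.5 log2 units between neighboring mice with at least 4 mice on each side. Ppp1r1a and 4 other genes met this. Rpl34, a ribosomal protein gene with near-identical copies that reads may not tell apart, had 12 mice at 1.49 log2 CPM or below and 13 at 6.14 or above, of which 7 were among the 14 high and 6 among the 11 low mice for Ppp1r1a. Vcp, which encodes a segregase of ubiquitinated proteins, had 7 mice at 6.29 or above, 6 of them high and 1 low for Ppp1r1a, and 18 at 3.36 or below. Myl1, a fast myosin light chain, had 9 mice at 12.4 or above, 6 high and 3 low, and 16 at 10.7 or below. Mfap1a had 21 mice at 2.61 or above, 11 high and 10 low, and 4 at 0.97 or below. None of these 4 genes is on chromosome 15.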
